A study of Mus musculus with 6 samples.

Results

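The genes described here handle iron in the cell: the ferritin chains Fth1 and Ftl1, the ferritin autophagy receptor Ncoa4, the transferrin receptor Tfrc, the importer Slc11a2, the exporter Slc40a1, haem oxygenase Hmox1, and the iron regulatory proteins Aco1 and Ireb2. They were taken by gene name from a table of 25491 genes, and all 9 named genes were found in it. The libraries were made from mesenchymal progenitor cells of bone marrow, the stroma that can form skeletal and fat tissue and nurtures blood stem cells. They had been isolated by flow cytometry with the gate CD45-TER119-CD31-CD44-CD51+SCA1-. 3 libraries were of Lama4-/- animals, in which a laminin chain of basement membranes is missing, and 3 of wild type (WT) animals. All mice were C57BL/6J, aged 14 weeks, and all had received a sublethal dose of 7 Gy of radiation 6 weeks earlier, so no unirradiated cells enter the comparison. The labels describe the animals as deficient for Lama4 and name no promoter or Cre. The design names 3 mice of each genotype for 3 libraries of each, but no label ties a library to an animal. The p-values below therefore rest on the variation among these libraries, part of which may be technical.

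Cells take up iron bound to transferrin through the transferrin receptor, move it out of the endosome with the transporter encoded by Slc11a2, store it inside ferritin shells built of heavy and light chains, and release it through ferroportin, encoded by Slc40a1. When iron is scarce, the iron regulatory proteins IRP1 (Aco1) and IRP2 (Ireb2) bind a hairpin called the iron-responsive element. In a 5′ untranslated region the bound protein blocks translation, and in the 3′ untranslated region of Tfrc it protects the mRNA from decay. An mRNA table such as this one therefore reads the Tfrc arm of the system more directly than the ferritin and ferroportin arms, whose control is largely on translation. In marrow, red cell precursors use most of the iron and macrophages recycle it from old red cells.

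The hairpins were looked for in the GENCODE transcripts of the same build, GRCm38, as a bulged C, 5 stem bases, the loop CAGTGN with N not G, and 5 further bases that pair with the first 5, G-T pairs allowed, on the transcript's own strand. A match lay in the 5′ untranslated region of 0.11% of 20916 coding genes that have one, and in the 3′ untranslated region of 0.475% of 21045. Among the iron handling genes the search found 1 match in the 5′ region of each of Fth1, Ftl1 and Slc40a1, and 4 in the 3′ region of Tfrc. They are shown because these members share an element that takes part in their control. Capitals mark the bulged C and the loop.
Fth1, 5′ untranslated region, chr19:9982732-9982760, plus strand: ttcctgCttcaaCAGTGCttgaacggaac
Ftl1, 5′ untranslated region, chr7:45459779-45459807, minus strand: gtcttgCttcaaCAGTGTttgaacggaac
Slc40a1, 5′ untranslated region, chr1:45925465-45925493, minus strand: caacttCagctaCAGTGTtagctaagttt
Tfrc, 3′ untranslated region, chr16:32631219-32631247, plus strand: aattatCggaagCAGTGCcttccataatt
Tfrc, 3′ untranslated region, chr16:32631598-32631626, plus strand: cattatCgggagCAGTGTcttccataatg
Tfrc, 3′ untranslated region, chr16:32631663-32631691, plus strand: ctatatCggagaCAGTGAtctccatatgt
Tfrc, 3′ untranslated region, chr16:32631710-32631738, plus strand: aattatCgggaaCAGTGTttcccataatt
The 2 ferritin elements share the upper stem bases on both sides of the loop. The search found no match in Slc11a2, Hmox1, Aco1, Ireb2 or Ncoa4. It also found 0 matches in Epas1, Cdc14a and Cdc42bpa, which are in the list used below of other mRNAs known to carry the element. The remaining genes of that list had a match. A missing match therefore does not show that the element is absent. The matches are descriptions of sequence, and the table holds no measure of protein binding.

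Library totals ran from 6263830 to 15663957 counts, with WT replicate 2 the shallowest. Lama4 had 0 counts over the Lama4-/- libraries and 1281 over the WT libraries, as the genotypes are labelled. All 8 progenitor markers, the most abundant of them Col1a1 and Cxcl12, had a count in every library. 7 of the 8 had a log2 fold change below 0, with a median of -0.95 that was -0.16 with the trend on transcript length removed, and 0 passed the adjusted edgeR test. Lepr, Pdgfra, Pdgfrb, Kitl and Itgav were lower in every Lama4-/- library than in any WT library, as were 12% of all tested genes. Their longest coding transcripts have 5423 to 7054 bases, and fold changes in this series follow transcript length, as given below. Col1a1 was at 43832 ± 25134 CPM in Lama4-/- and 38825 ± 6622 CPM in WT (SD, n = 3 each). Red cell, neutrophil and macrophage transcripts were also present, and the ranges of their summed levels reached higher in Lama4-/- libraries. The red cell list (8 of 11 genes with a count in every library, Ahsp not analysed here, led by Hbb-bs and Hba-a1) summed to between 1385 and 3886 CPM in Lama4-/- and between 266 and 1711 CPM in WT. The neutrophil list (4 of 8 genes with a count in every library, led by S100a9 and S100a8) summed to between 78.5 and 683 CPM in Lama4-/- and between 24.5 and 97.0 CPM in WT. The macrophage list (4 of 14 genes with a count in every library, led by Lyz2 and Cd68) summed to between 72.1 and 122 CPM in Lama4-/- and between 23.5 and 48.1 CPM in WT, with Spic, Marco and Vsig4 not analysed here. Most of that sum was Lyz2, which neutrophils also express; without it the list, an alternative chosen after seeing the data, summed to 18.5, 48.4 and 35.7 CPM in Lama4-/- and 14.4, 11.99 and 29.5 CPM in WT, and the groups overlapped. Of the 7 tested genes of the macrophage list, 6 had a log2 fold change above 0 and 1 below, with a median of 1.97. None passed the adjusted edgeR test. C1qa, C1qb and C1qc were higher in every Lama4-/- library than in any WT library, as were 10.3% of all tested genes. The means of C1qa, C1qb and C1qc were 2.94, 7.68 and 5.30 CPM in Lama4-/- and 0.680, 2.59 and 1.23 CPM in WT. Mrc1 and Cd5l were at 0 in all WT libraries and had at most 2.03 CPM in any Lama4-/- library. The means of Cd68 (6.73 CPM in Lama4-/- and 9.10 CPM in WT) and Adgre1 (0.0701 CPM in Lama4-/- and 2.92 CPM in WT) were lower in Lama4-/-. The endothelial list (1 of 6 genes with a count in every library, Emcn not analysed here, led by Pecam1 and Kdr) summed to between 0.120 and 0.752 CPM in Lama4-/- and between 4.62 and 7.02 CPM in WT. In the sort gate, Ptprc, which encodes CD45, was at 0 in 2 Lama4-/- libraries and 1 WT library. Transcripts of the proteins the gate excludes were present, with Cd44 at 53.2 to 82.0 CPM in Lama4-/- and 70.6 to 152 CPM in WT, and Ly6a, which encodes SCA1, at 8.64 to 11.8 CPM in Lama4-/- and 8.90 to 16.3 CPM in WT. Itgav, which encodes CD51, averaged 59.2 ± 14.3 CPM in Lama4-/- and 114 ± 22.5 CPM in WT (SD, n = 3 each). In bulk RNA, fewer cells of a type and less RNA per cell cannot be told apart.

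None of the 9 iron handling genes differed between Lama4-/- and WT past an adjusted p of 0.05 (edgeR quasi-likelihood test, Benjamini-Hochberg adjustment over 14465 tested genes). All 9 passed the filter on low counts. In the same test 0.00691% of all tested genes passed, namely Lama4 alone. Without adjustment, 0 of the 9 had a p under 0.05, where 12.8% of all tested genes did. DESeq2 called 0 of the 9 too, with a lowest adjusted p of 0.301 for Tfrc, and 4.64% of the genes it adjusted. 5 of the 9 log2 fold changes were above 0, beside 48% of all tested genes, and 4 below, with a median of 0.02 beside -0.04 over all tested genes. Ferritin heavy chain alone had groups that did not overlap in CPM, the read count scaled to a common library total with TMM factors. Such groups were seen for 22.3% of all tested genes, 10.3% with Lama4-/- above WT and 12% with it below.

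**Figure D1:**
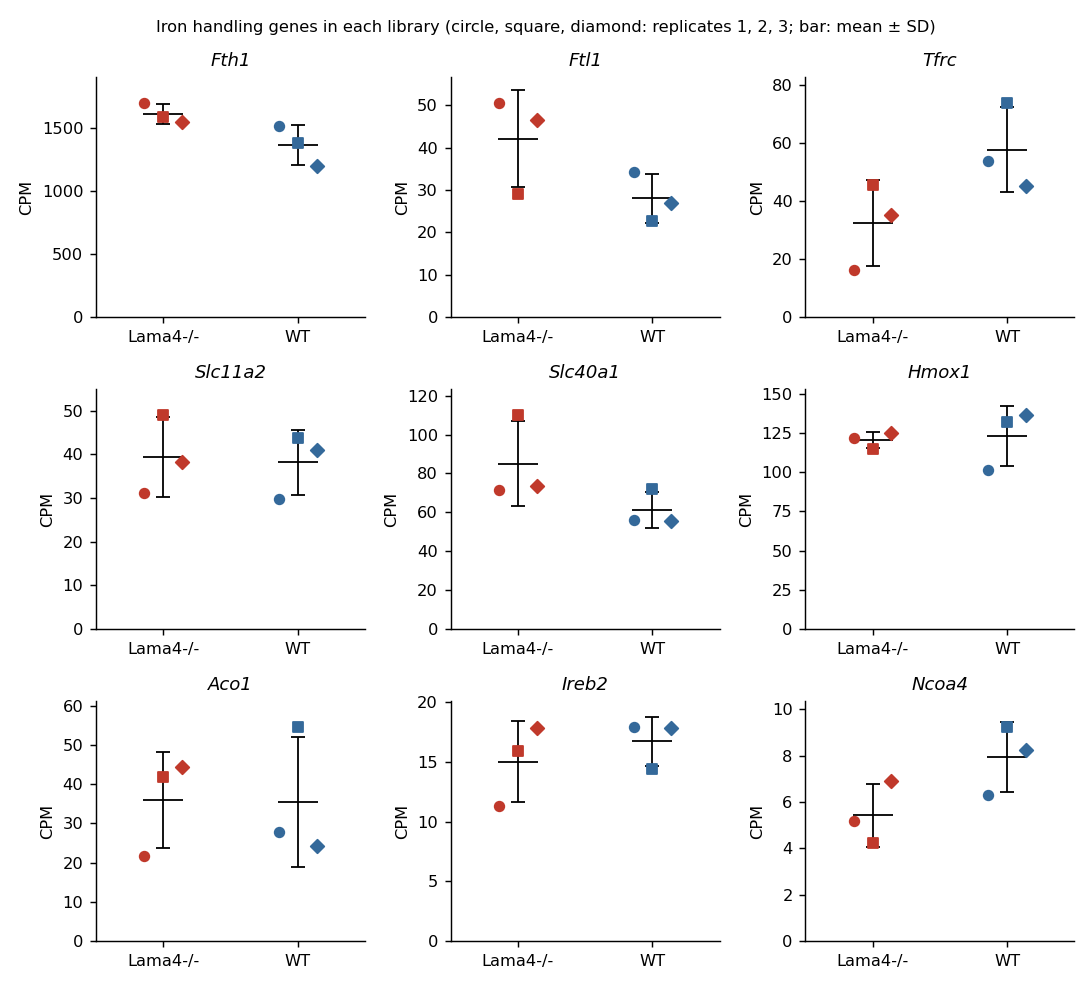
Each panel gives 1 iron handling gene, with CPM on a vertical axis from 0, Lama4-/- on the left and WT on the right; points are libraries, bars the mean ± SD (n = 3). Fth1 alone has Lama4-/- points all above the WT points, and Tfrc has its lowest point, 16.3 CPM, in Lama4-/- replicate 1.

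Fth1 (chromosome 19, 9980598 to 9985098, plus strand, GRCm38) encodes the ferritin heavy chain, which carries the ferroxidase activity that loads iron into the shell. It had 1697, 1588 and 1545 CPM in the Lama4-/- libraries, against 1512, 1378 and 1194 CPM in the WT libraries. The groups sat close together without overlapping, the lowest Lama4-/- library standing just above the highest WT library. Their means were 1610.4 ± 78.4 CPM in Lama4-/- and 1361 ± 159 CPM in WT (SD, n = 3 each). Its log2 fold change was 0.24 (SE 0.18; 95% interval -0.17 to 0.65; edgeR adjusted p = 0.632). Fth1 ranked 56 of 14465 tested genes by mean CPM, so its counts, 8048 to 28281 per library, leave little counting error. Among tested genes 1.77% had a smaller spread of log2 CPM within a genotype, which makes it one of the steadiest transcripts in these libraries.

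Ftl1 (chromosome 7, 45457944 to 45459884, minus strand) encodes the ferritin light chain, which helps the mineral core to form. It had 50.6, 29.1 and 46.6 CPM in Lama4-/-, against 34.3, 22.8 and 26.9 CPM in WT. Lama4-/- replicate 2 lay within the WT range and the other Lama4-/- libraries above it. The log2 fold change was 0.59 (SE 0.31; 95% interval -0.14 to 1.31; edgeR adjusted p = 0.491).

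The counts of Ftl1 cannot be read as the level of light chain mRNA. Of its 75-base windows, the length of the reads, 84.8% also occur letter for letter in transcripts of other genes, read on either strand. The gene matched most often, by 590 of 894 windows, was Ftl1-ps1. GENCODE lists this copy on chromosome 13 as coding, and its longest transcript has 1 exon. Over 910 aligned bases the copies differ at 4, and over 552 coding bases at 2. Both coding differences lie in the following 60-base stretch, which shows why a read seldom tells the genes apart; capitals mark the bases that differ.
Ftl1, chr7:45458155-45458214, minus strand: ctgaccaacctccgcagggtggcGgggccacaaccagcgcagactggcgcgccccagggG
Ftl1-ps1, chr13:74407048-74407107, plus strand: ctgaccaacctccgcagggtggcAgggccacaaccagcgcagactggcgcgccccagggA
The table gave Ftl1-ps1 more reads than Ftl1 in every library, 122, 106 and 160.5 CPM in Lama4-/- against 118, 107 and 88.8 CPM in WT. How reads that match several genes were counted is not given in the sources used here. With the counts of all genes named Ftl added together, an alternative chosen after seeing the data, the light chain stood at 172, 136 and 207 CPM in Lama4-/- and 152, 130.1 and 116 CPM in WT. Lama4-/- replicate 2 again lay within the WT range. The log2 fold change of this sum was 0.37 (SE 0.22; 95% interval -0.14 to 0.88; edgeR adjusted p = 0.536). Other ferritin copies, Fth-ps2, Fth-ps3, Ftl1-ps2 and Ftl2-ps, had at most 16 counts in any library. Fth1 shared 2.32% of its windows, all with Gm6977, which held 62.2 to 90.7 CPM.

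**Figure D2:**
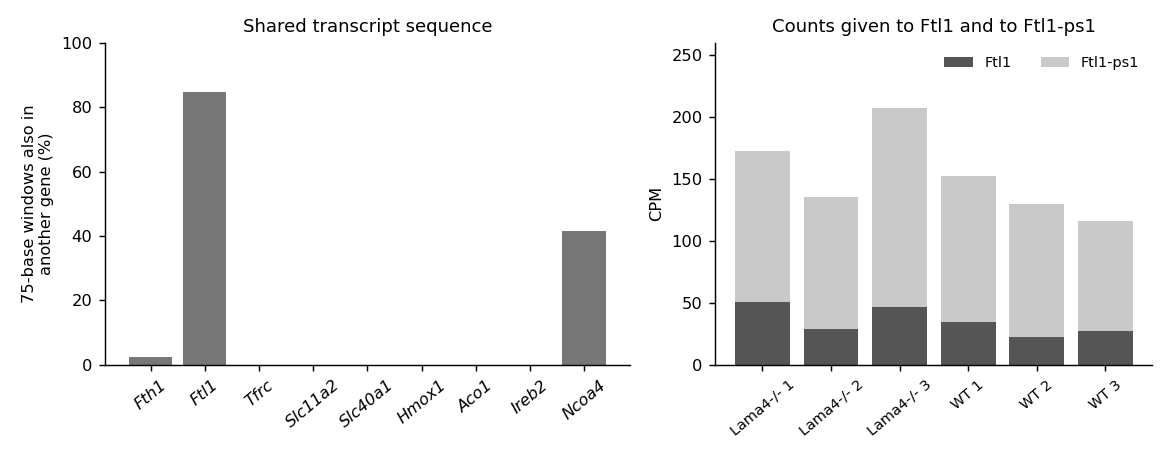
Left, the percentage of 75-base windows of each gene's transcript that also occur in another gene, with Ftl1 at 84.8% and Ncoa4 at 41.4%; right, stacked CPM given to Ftl1 and Ftl1-ps1 in each library. Ftl1 takes the smaller part of the stack in all 6 libraries.

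Ncoa4 (chromosome 14, 32159865 to 32179855, plus strand) encodes the receptor that carries ferritin to the lysosome, where its iron is released. It was the lowest of the 9, with 5.16, 4.21 and 6.90 CPM in Lama4-/-, against 6.28, 9.25 and 8.26 CPM in WT. Lama4-/- replicate 3 and WT replicate 1 crossed, so the groups overlapped. The log2 fold change was -0.55 (SE 0.53; 95% interval -1.78 to 0.69; edgeR adjusted p = 0.731), the widest interval of the members, on 54 to 107 counts per library. Ncoa4 shares 41.4% of its windows with a single gene, Gm6768, which had 14.3, 10.2 and 12.1 CPM in Lama4-/- and 9.42, 16.8 and 16.8 CPM in WT. With Gm6768 added, also chosen after seeing the data, the log2 fold change was -0.34 (edgeR adjusted p = 0.741).

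Tfrc (chromosome 16, 32608920 to 32632794, plus strand) encodes the receptor that takes up iron-loaded transferrin. It had 16.3, 45.5 and 35.2 CPM in Lama4-/-, against 53.9, 73.8 and 45.1 CPM in WT. Lama4-/- replicate 1 stood far below every other library, while Lama4-/- replicate 2 was level with WT replicate 3. The log2 fold change was -0.83 (SE 0.40; 95% interval -1.77 to 0.11; edgeR adjusted p = 0.442), the largest of the 9 in size and the smallest in adjusted p. Without Lama4-/- replicate 1 it was -0.50, and without Lama4-/- replicate 2 it was -1.17. Red cell precursors are rich in this receptor, and the red cell list stood at 3483, 1385 and 3886 CPM in Lama4-/- and 266, 642 and 1711 CPM in WT; its part in the Tfrc values was not tested.

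Slc11a2 (chromosome 15, 100387898 to 100425072, minus strand) encodes DMT1, which moves iron across the endosome membrane. It had 31.0, 49.0 and 38.1 CPM in Lama4-/-, against 29.8, 43.8 and 40.9 CPM in WT. The libraries of both genotypes covered the same range. Genotype differed by a log2 fold change of 0.05 (SE 0.28; 95% interval -0.61 to 0.71; edgeR adjusted p = 0.962). Its exons overlap Gm5475 on the other strand, and the kit does not mark strand; those of Ftl1 likewise overlap Gm10252.

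Slc40a1 (chromosome 1, 45908068 to 45926523, minus strand) encodes ferroportin, the iron exporter of the cell membrane. It had 71.5, 110.2 and 73.3 CPM in Lama4-/-, against 55.9, 71.8 and 55.7 CPM in WT. Lama4-/- replicate 2 was the highest library, and Lama4-/- replicate 1 fell just short of WT replicate 2, which left the groups barely overlapping. The log2 fold change was 0.48 (SE 0.25; 95% interval -0.10 to 1.06; edgeR adjusted p = 0.481), and 0.24 without Lama4-/- replicate 2. Ferroportin is abundant in iron-recycling macrophages. The macrophage list summed to 107, 122 and 72.1 CPM in Lama4-/- and 34.7, 23.5 and 48.1 CPM in WT. Without Lyz2 it overlapped between genotypes, with Lama4-/- replicate 1 at 18.5 CPM below WT replicate 3 at 29.5 CPM. Of the 7 tested genes of the list, 6 had a log2 fold change above 0 and 1 below. Its part in the Slc40a1 values was not tested.

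Hmox1 (chromosome 8, 75093621 to 75100589, plus strand) encodes the enzyme that opens the haem ring and frees its iron, a transcript raised by haem and oxidative stress. It had 122, 115 and 125 CPM in Lama4-/-, against 101, 132 and 137 CPM in WT. The Lama4-/- libraries lay inside the WT range. Its log2 fold change stood at -0.03 (SE 0.19; 95% interval -0.48 to 0.41; edgeR adjusted p = 0.962). After Fth1 this was the second narrowest interval of the members, and 4.18% of tested genes had a smaller spread within a genotype.

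The iron regulatory proteins differed in how steady they were. Aco1 (chromosome 4, 40143081 to 40198338, plus strand) encodes IRP1, which serves as cytosolic aconitase while it holds an iron-sulphur cluster. It had 21.8, 41.8 and 44.3 CPM in Lama4-/-, against 27.7, 54.6 and 24.2 CPM in WT. Both genotypes spanned about the same range. Its log2 fold change was 0.02 (SE 0.42; 95% interval -0.96 to 1.002; edgeR adjusted p = 0.987). Ireb2 (chromosome 9, 54863789 to 54912530, plus strand) encodes IRP2, which is degraded when iron is plentiful. It had 11.3, 15.9 and 17.9 CPM in Lama4-/-, against 17.9, 14.4 and 17.8 CPM in WT. The groups overlapped, with Lama4-/- replicate 1 the lowest library. Its log2 fold change was -0.16 (SE 0.35; 95% interval -0.97 to 0.65; edgeR adjusted p = 0.902). Since both proteins are regulated mainly after translation, their mRNA levels do not give their activity.

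**Figure D3:**
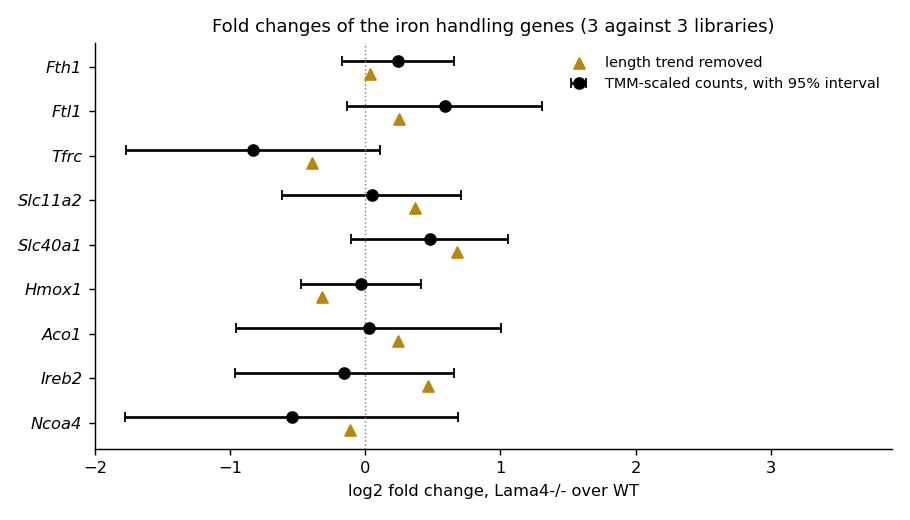
Log2 fold change of Lama4-/- over WT for each iron handling gene on the horizontal axis, with black points and 95% intervals from the edgeR fit (3 against 3 libraries) and triangles for the fit with the length trend removed. All 9 intervals cross 0, and Ireb2 and Hmox1 move by 0.62 and -0.29 between the fits.

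Scaled to transcript length, the members spread over almost 3 powers of 10. Fth1 averaged 1078 ± 52.5 CPM per kb in Lama4-/- and 911 ± 107 CPM per kb in WT (SD, n = 3 each), and stood above every other member in all 6 libraries. Hmox1 came next, at 76.9 ± 3.26 CPM per kb in Lama4-/- and 78.6 ± 12.3 CPM per kb in WT, above Ftl1 in all 6 libraries. Ftl1, with the limit on its reads given above, was at 43.5 ± 11.8 and 28.9 ± 6.05 CPM per kb in Lama4-/- and WT. Ftl1-ps1, the copy that most often shares its windows, was at 138 ± 29.7 CPM per kb in Lama4-/- and 112 ± 14.7 CPM per kb in WT. The place of the light chain below Hmox1 therefore depends on how shared reads were counted. As counted, Ftl1 exceeded Slc40a1, at 25.2 ± 6.47 CPM per kb in Lama4-/- and 18.1 ± 2.73 CPM per kb in WT, in 5 of 6 libraries, and their ranges overlapped. Aco1, Tfrc and Slc11a2 formed a middle group with overlapping ranges, at means over all libraries of 9.33, 9.20 and 8.78 CPM per kb, below Slc40a1 in every library. Ireb2, at 2.75 CPM per kb, and Ncoa4, at 1.64 CPM per kb, were lowest. Ireb2 was the higher in all 6 libraries although their ranges over libraries overlapped. Gm6768, which shares 41.4% of the Ncoa4 windows, was at 6.49 ± 1.08 CPM per kb in Lama4-/- and 7.64 ± 2.27 CPM per kb in WT. The lowest place of Ncoa4 therefore also depends on how shared reads were counted. The exporter mRNA of Slc40a1 stood above the uptake receptor mRNA of Tfrc per length in each library.

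**Figure D4:**
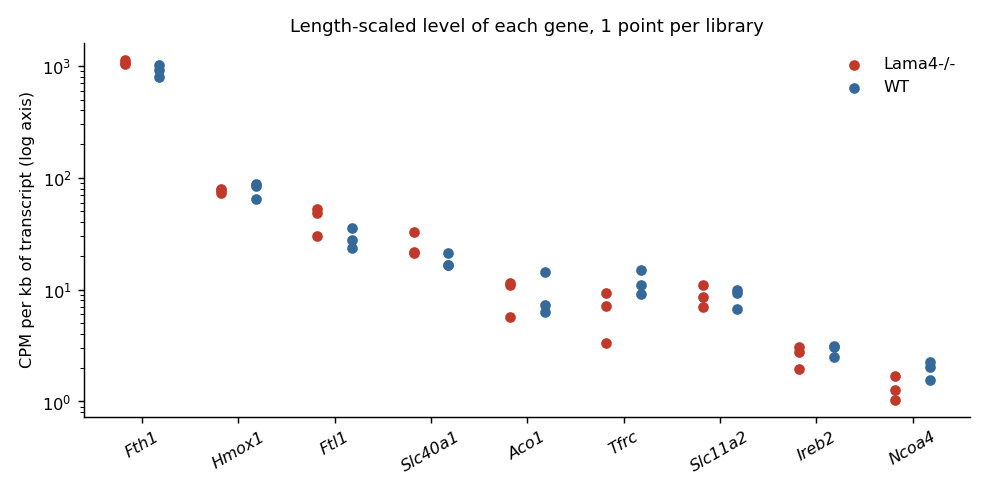
Level of each iron handling gene in CPM per kb of its longest coding transcript (log axis), ordered by the mean over 6 libraries, with Lama4-/- points left of WT points. Fth1 lies near 1000 CPM per kb, Hmox1 near 78 and Ncoa4 near 1.6, and the points of Aco1, Tfrc and Slc11a2 overlap.

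Ratios of a pair of genes within a library do not depend on how libraries are scaled. 5 ratios were set, each tested with a two-sided exact permutation test over 3 against 3 libraries, for which the smallest p possible is 0.1. The count of Tfrc relative to Fth1 was 0.0096, 0.0287 and 0.0228 in Lama4-/-, against 0.0357, 0.0536 and 0.0378 in WT. Every Lama4-/- library was below every WT library. The mean log2 ratio was -5.76 ± 0.83 in Lama4-/- and -4.58 ± 0.32 in WT (SD, n = 3 each), a difference of -1.18 (exact permutation p = 0.1, adjusted over the 5 ratios 0.25). Without Lama4-/- replicate 1 the difference was -0.70. Slc40a1 relative to Tfrc was 4.39, 2.42 and 2.08 in Lama4-/-, against 1.04, 0.972 and 1.23 in WT. Here every Lama4-/- library was above every WT library, with a difference of 1.38 in log2 (exact permutation p = 0.1, adjusted 0.25). Without Lama4-/- replicate 1 this difference was 1.06. Both ratios contain Tfrc, so they are not independent of each other. Among single genes, 22.3% of those tested had groups that did not overlap, and the share among ratios of all gene pairs was not computed. With 3 libraries a group neither ratio can pass a threshold of 0.05.

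The remaining ratios overlapped between genotypes. Fth1 relative to Ftl1 was 33.5, 54.5 and 33.1 in Lama4-/- and 44.0, 60.3 and 44.3 in WT, a log2 difference of -0.32 (exact permutation p = 0.3, adjusted 0.5). It was -0.17 without WT replicate 2 and -0.56 without Lama4-/- replicate 2. With the other genes named Fth or Ftl added to the chains it was 9.84, 11.7 and 7.45 in Lama4-/- and 9.92, 10.6 and 10.3 in WT. The ratio of the chains fell in every library as a matter of addition. Ftl1 held 17.5% to 29.3% of the Ftl counts, and Fth1 at least 99.9% of the Fth counts. These counts were gathered by gene name and leave out Gm6977, which shares windows with Fth1. Hmox1 relative to Fth1 was 0.0719, 0.0724 and 0.0808 in Lama4-/- and 0.0670, 0.0959 and 0.114 in WT, a log2 difference of -0.27 (exact permutation p = 0.4, adjusted 0.5). It was -0.0966 without WT replicate 3 and -0.48 without WT replicate 1. Aco1 relative to Ireb2 was 1.93, 2.62 and 2.48 in Lama4-/- and 1.54, 3.78 and 1.36 in WT, a log2 difference of 0.22 (exact permutation p = 0.8, adjusted 0.8).

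**Figure D5:**
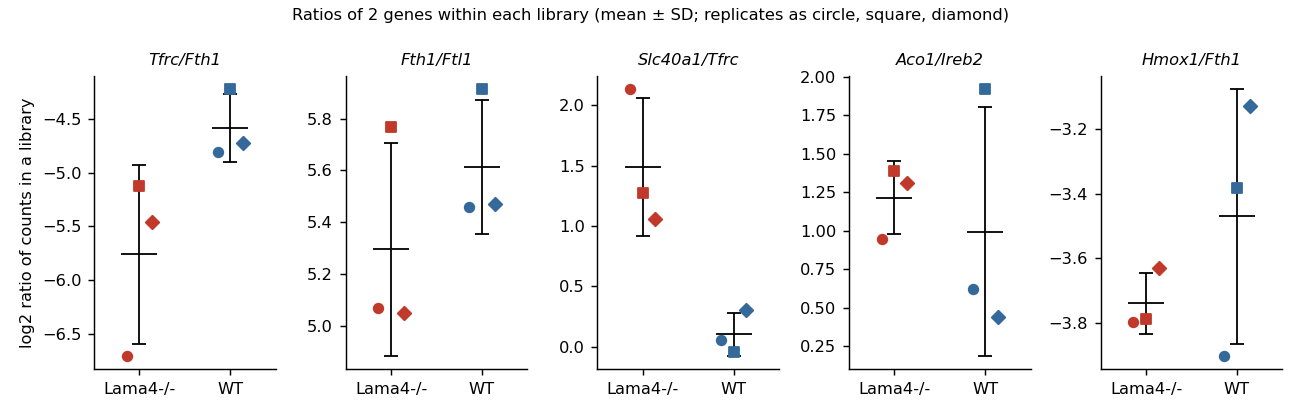
Log2 ratio of the counts of 2 genes within each library, 1 panel per ratio, with Lama4-/- left of WT, points for libraries and bars for the mean ± SD (n = 3). The groups separate for Tfrc/Fth1 and Slc40a1/Tfrc, which both contain Tfrc, and overlap in the other panels.

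Fold changes in this series follow transcript length (Spearman's rho across 14463 genes -0.46; genes are not independent replicates), and the members differ widely in it, with longest annotated transcripts from 968 bases for Ftl1 to 5770 for Ireb2. Each was therefore also set beside the tested genes of its own length decile. Fth1, at a log2 fold change of 0.24, stood beside a median of 0.27 in its decile, with 47.7% of those genes lower. Tfrc, at -0.83, stood beside a median of -0.38 with 26.4% lower, and Slc40a1, at 0.48, beside a median of -0.15 with 84.7% lower. Hmox1 and Ireb2, near the centre of all genes, were in opposite places for their lengths: 25.4% of the decile of Hmox1 was lower and 73.9% of the decile of Ireb2. With the trend removed from every library, 6 of the 9 log2 fold changes were above 0, with a median of 0.24 beside 0.02 over all tested genes. Slc40a1 was then at 0.68 (SE 0.21; edgeR unadjusted p = 0.0119, adjusted p = 0.524), Tfrc at -0.40, Ftl1 at 0.25 and Fth1 at 0.04. 0 members passed the adjustment in that fit, and 0 of all genes. The difference in Tfrc relative to Fth1 shrank to -0.53 (exact permutation p = 0.6), while that in Slc40a1 relative to Tfrc was 1.15 (exact permutation p = 0.1).

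The wider iron system was read from 8 lists with 84 genes, of which 74 were tested, 6 fell under the filter on low counts and 4 were not analysed here. 0 of the 74 passed the adjusted threshold. At an unadjusted p under 0.05 there were 7 on the higher side, 9.46% of the tested list genes against 4.45% of all tested genes, and 5 on the lower side, 6.76% against 8.34%. The values that follow are named by abundance or smallest p in a list, and none passed the edgeR test after adjustment. With the length trend removed, several of the log2 fold changes given below were nearer to 0: -0.29 for Slc39a14, 0.21 for Pcbp1, -0.035 for Neo1, -0.87 for Slc25a37 and 0.27 for Taldo1.

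Genes of iron uptake and reduction had 9 positive and 3 negative log2 fold changes, with a median of 0.26. Transferrin itself (Trf) was at 838 ± 295 CPM in Lama4-/- and 585 ± 246 CPM in WT. Slc39a14, a transporter of iron not bound to transferrin, was at 138 ± 39.1 CPM in Lama4-/- and 236 ± 70.7 CPM in WT (log2 fold change -0.78; edgeR unadjusted p = 0.0376, adjusted p = 0.360). The list also holds Lcn2, a siderophore-binding protein made by neutrophils, at 25.6 ± 20.8 CPM in Lama4-/- and 7.50 ± 4.72 CPM in WT. The neutrophil list was highest in the same libraries as Lcn2, Lama4-/- replicates 1 and 2, at 683 and 629 CPM, and its part in the Lcn2 values was not tested.

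Chaperones and ferroxidases had 1 positive and 3 negative values, with a median of -0.34 that was -0.12 without WT replicate 2 and -0.54 without WT replicate 3. Ceruloplasmin (Cp), which oxidises iron as ferroportin releases it, was at 229 ± 31.5 CPM in Lama4-/- and 281 ± 25.7 CPM in WT. Pcbp1, a chaperone that delivers iron to ferritin, was at 215 ± 18.4 CPM in Lama4-/- and 156 ± 23.3 CPM in WT (log2 fold change 0.46; edgeR unadjusted p = 0.0406, adjusted p = 0.367). Among regulators (2 positive, 2 negative, median -0.06), Bmp2 was at 81.4 ± 26.8 CPM in Lama4-/- and 75.8 ± 9.62 CPM in WT. Neogenin (Neo1), a receptor for haemojuvelin, was at 104 ± 18.1 CPM in Lama4-/- and 183 ± 84.7 CPM in WT, and hepcidin (Hamp) had at most 0.514 CPM in any library.

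Haem transport and breakdown split evenly, 5 positive and 5 negative, with a median of 0.03. Lrp1, which takes up haem bound to haemopexin among many other ligands, was at 333 ± 71.7 CPM in Lama4-/- and 807 ± 316 CPM in WT, with a log2 fold change of -1.28 that was 0.05 with the length trend removed. The haem transporter Slc48a1 was at 92.1 ± 19.6 CPM in Lama4-/- and 79.8 ± 14.9 CPM in WT.

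Mitochondrial iron import and iron-sulphur cluster assembly had 11 positive and 6 negative values, with a median of 0.33. The chaperone Hspa9 was at 127 ± 7.68 CPM in Lama4-/- and 144 ± 17.8 CPM in WT, and the cluster carrier Glrx5 at 88.8 ± 14.5 CPM in Lama4-/- and 66.5 ± 14.4 CPM in WT. Mitoferrin 1 (Slc25a37), the importer used by red cell precursors, went the other way from the red cell markers, at 11.7 ± 5.80 CPM in Lama4-/- and 32.7 ± 19.5 CPM in WT (log2 fold change -1.49; edgeR unadjusted p = 0.0307, adjusted p = 0.334). In cytosolic cluster assembly 8 values were positive and 2 negative, with a median of 0.36. Nubp2 was at 53.9 ± 8.25 CPM in Lama4-/- and 43.8 ± 13.9 CPM in WT, Ciapin1 at 46.7 ± 22.1 CPM in Lama4-/- and 30.1 ± 3.26 CPM in WT. Ciao3 was at 25.2 ± 12.4 CPM in Lama4-/- and 10.99 ± 1.63 CPM in WT (log2 fold change 1.196; edgeR unadjusted p = 0.0275, adjusted p = 0.329).

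Of the other mRNAs known to carry an iron-responsive element, 2 were positive and 3 negative, with a median of -0.28. The erythroid haem synthesis enzyme Alas2 was at 149 ± 69.0 CPM in Lama4-/- and 44.6 ± 29.8 CPM in WT; it is also one of the red cell markers, which were high in the same libraries. Epas1, the hypoxia factor HIF2 alpha, was at 34.0 ± 11.4 CPM in Lama4-/- and 119.9 ± 74.7 CPM in WT (log2 fold change -1.82; edgeR unadjusted p = 0.00514, adjusted p = 0.238). Genes controlled by NRF2, the oxidative stress factor that also drives Hmox1 and ferritin, were listed together with the genes of NRF2 itself and a regulator of it. The list had 8 positive values, both of these genes among them, and 4 negative values, with a median of 0.16. Sulfiredoxin (Srxn1) was at 192 ± 35.5 CPM in Lama4-/- and 235 ± 77.98 CPM in WT, and thioredoxin reductase (Txnrd1) at 161 ± 17.8 CPM in Lama4-/- and 196 ± 105 CPM in WT. Taldo1, of the pentose phosphate pathway, was at 117 ± 31.1 CPM in Lama4-/- and 78.3 ± 6.65 CPM in WT (log2 fold change 0.59; edgeR unadjusted p = 0.0450, adjusted p = 0.380).

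Likeness of pattern was taken as the root mean square difference of centred log2 CPM over the 6 libraries, among 10640 other genes with a mean of at least 5 CPM. Nearest to Fth1 were Etf1 at 0.056, Sri at 0.062 and Tbcb at 0.076, where the median gene stood at 0.509. Nearest to Tfrc were Micall2 at 0.117, Ace at 0.119 and P2ry14 at 0.125, beside a median of 0.839. Nearest to Hmox1 were Mettl5 at 0.065, Snrnp70 at 0.074 and Srsf5 at 0.079, beside a median of 0.508. A gene that did not vary over the libraries would lie at 0.164 from Fth1, 0.673 from Tfrc and 0.142 from Hmox1. The named genes are the nearest of 10640 over only 6 libraries, and no chance level was computed.

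In the authors' deposited table, made with DESeq2 and a beta prior, the members had the directions found here, and 0 of the 9 had an adjusted p under 0.05, where 6.63% of the 10180 genes with such a value did. The authors' deposited table lists Tfrc at a shrunken log2 fold change of -0.71 (adjusted p = 0.25), Ftl1 at 0.54 (adjusted p = 0.335), Slc40a1 at 0.45 (adjusted p = 0.32) and Fth1 at 0.24 (adjusted p = 0.416).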

How the data were processed

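cDNA of sorted progenitors was prepared with SMART-Seq v4, turned into Nextera XT libraries and read as 75 bp single ends, per the labels' protocols. The submitters' processing notes name STAR 2.6.1d, featureCounts, Subread and DESeq2 with the builds GRCm38 and mm10; the treatment of reads matching several genes is not given in the sources used here. 1 table was deposited. Its 2 blocks appear to carry each other's headings: the one headed normalized has the raw counts deposited by the authors, as whole numbers, and was used, and the one headed raw has their normalized signal, each library's counts times 1 factor (0.708 to 1.98). Per the file headers, the rest is the DESeq2 test with a beta prior, given as mean signal, shrunken log2 fold change, standard error, Wald score and p-value; 15311 genes have no adjusted value.

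In R 4.3.3, genes were kept with filterByExpr, scaled with TMM and tested with the robust quasi-likelihood test of edgeR 4.0.16, 3 against 3 libraries without covariates; the common dispersion was 0.393. SEs are the log2 fold change over the square root of F. Other tools were DESeq2 1.42.0 and limma 3.58.1. CPM per kb uses the longest coding transcript of GENCODE M21 (25458 gene identifiers found). Ratios add 0.5 counts. To remove the length trend, deviations from each gene's mean were smoothed against the log of transcript length by lowess (span 0.3) in every library and entered as offsets. Sequences were aligned with Biopython 1.88. Libraries of the same genotype differed by more than sampling noise, with a lowest chi-square of 42.6 per gene. In simulated counts of Lama4-/- against WT over 13665 genes, the test found 47 of 100 with a 4-fold difference and 80 of 100 with a 16-fold one. It made 4 false calls. The differences of the members were smaller than 4-fold, and recovery at such sizes was not measured.

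The iron genes, lists, ratios and rules for naming genes were chosen with earlier results of these data known. Lcn2, Hamp, Adgre1, Mrc1, Cd5l, C1qa, C1qb, C1qc, Ptprc, Cd44, Ly6a, Lepr, Pdgfra, Pdgfrb, Kitl, Itgav, Cdc14a, Cdc42bpa, Gm6768 and Gm6977 were named after their values were seen. The other named genes are the members, the 2 most abundant genes and the smallest p of each list, the 3 nearest patterns of Fth1, Tfrc and Hmox1, genes named Fth or Ftl, Lama4, and from every marker list the 2 genes with most CPM. 1 gene that this rule names is not reported here.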

Additional observations from a re-analysis of the deposited data

How the results depend on the processing

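In 147 refits of single members, 0 had an adjusted p under 0.05 and 135 had the same direction. Fth1, Ftl1, Tfrc, Slc40a1 and Ncoa4 kept their direction in all of them. The sign of the other members, all near 0, turned in some: Hmox1 was at 0.0642 with upper-quartile scaling and 0.00917 with limma voom, and Ireb2 at 0.47 with the length trend removed. Leaving out each library in turn gave -0.15 to 0.21 for Slc11a2, -0.14 to 0.0586 for Hmox1, -0.18 to 0.47 for Aco1 and -0.30 to 0.0246 for Ireb2. Aco1 relative to Ireb2 differed by -0.21 with the length trend removed and by -0.0562 to 0.68 with a library left out, Hmox1 relative to Fth1 by -0.48 to -0.0966 and Fth1 relative to Ftl1 by -0.56 to -0.17. The cause was not tested.

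The single gene past the threshold became 0 with upper-quartile scaling, limma voom (2352 genes at an unadjusted p under 0.05), no robust moderation, the replicate block or the length trend removed, 12 without a filter, 741 with DESeq2, and 0 to 1 with a library left out. 0 iron handling genes were among them in any of these. List medians moved beyond the spread between replicates to 0.0617 for chaperones and to 0.17 for mRNAs with the element when the length trend was removed. With a library left out, they ran from 0.0587 to 0.32 for haem, 0.19 to 0.44 for mitochondrial clusters, -0.50 to -0.0171 for mRNAs with the element, 0.0255 to 0.27 for NRF2 genes, -0.54 to -0.12 for chaperones and -0.18 to -0.0374 for regulators. For iron uptake they ran from 0.22 to 0.40. When the length trend was removed, the medians of iron uptake, at 0.54, and of regulators, at 0.0931, lay outside these ranges too.

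Same-numbered libraries correlated weakly in their deviations from the genotype means (r of 0.04, 0.13 and 0.05), so the numbers were not taken as pairs, although each library correlated best with its own number. With the replicate block 0 members passed. The ratio differences, -1.18 for Tfrc/Fth1 and 1.38 for Slc40a1/Tfrc, are the same by construction when libraries are paired. Their exact permutation p was then 0.25 each, the smallest that this pairing allows. Ncoa4 and Ireb2 rest on the fewest counts.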
